A study of Saccharomyces cerevisiae with 4 samples.

Results

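Beta-oxidation of fatty acids in budding yeast takes place in peroxisomes, and the genes examined here are those of that pathway and of the organelle that houses it. They were chosen by name, as 35 genes in 5 roles, with earlier results of these data known. Of the list, 10 encode enzymes of oxidation, 4 acyl-CoA synthetases, 3 transporters of the peroxisomal membrane, 2 transcriptional regulators and 16 peroxins, the proteins that build peroxisomes. Probe sets for 33 of the 35 genes were in the fold change table, 36 probe sets among 7519 in all. The thiolase gene POT1 and the peroxin gene PEX18 were not analysed here. A further gene, POX1, had too few detected signals for the test, which left 32 genes among 5130 tested across the genome.

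A fatty acid is joined to coenzyme A by an acyl-CoA synthetase, carried into the peroxisome, and shortened in repeated rounds to acetyl-CoA, with hydrogen peroxide as a by-product. In Saccharomyces cerevisiae these genes are known to be held low by glucose and to be strongly induced by oleate, through the factors Oaf1 and Pip2 together with Adr1. Matrix enzymes are imported fully folded by peroxins that recognise short targeting signals.

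RNA came from BY4741, a haploid laboratory strain of mating type a, and was hybridised to 4 Affymetrix yeast arrays. The 2 control arrays held RNA of mid-exponential cells moved to fresh MM4 medium for 15 min without drug, and the 2 quinine arrays held RNA of cells given quinine, an antimalarial alkaloid, at 1 g/L for the same time. The drug came in ethanol, at 0.7% by volume, and the sources used here do not say if controls received it too, so drug and solvent cannot be told apart. Separate cultures for the replicates are not stated in the labels, so the errors and p values measure only the spread between these arrays, which may be technical. RNA was taken from whole cultures, and fewer cells with a transcript and less transcript per cell cannot be told apart.

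Median signals of the 4 arrays lay between 596 and 636. All 6 marker genes of mating type a had a probe set, and MFA1 had more than 1. Over these 7 probe sets the summed signal was 34083 to 41194 on control arrays and 36767 to 43790 on quinine arrays. The 4 marker genes of the opposite mating type summed to 942 to 978 and 999 to 1058. Of their probe sets 2, those of SAG1 and STE3, were called above background on all 4 arrays. Across the genome, 1 gene in 5130 passed the test between groups, at an adjusted p under 0.05 in limma, or 0.0195%, and it was not among the genes of this pathway. Leaving out control replicate 1 gave 105 such genes, leaving out control replicate 2 gave 25, and leaving out either quinine array gave 0.

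No gene of the pathway passed the test over all genes, the lowest adjusted p in limma being 0.0775, for the acyl-CoA synthetase gene FAA2. The mean log2 signal was higher with quinine in 25 of the 32 tested genes and lower in 7, while 46.7% of all genes tested were higher. Their median log2 fold change was 0.17, beside -0.02 over all genes. Large changes were few: 2 of the 32, FAA2 and ECI1, reached 0.5 on the log2 scale in either direction, or 6.25%, against 17.5% of all genes. The median absolute log2 fold change was 0.24, beside 0.22 over all genes. An unadjusted p under 0.05 was found for 4 genes, all higher, namely FAA2, ECI1, TES1 and PXA1. That is 12.5% of the 32, where 18.3% of all genes had such a p in either direction and 6.32% were higher. On the lower side the count was 0 of 32, beside 12.0%. The 4 became 2 when control replicate 1 or quinine replicate 1 was left out, 3 when control replicate 2 was, and 1 when quinine replicate 2 was, while the share over all genes in either direction lay between 9.96% and 18.8%.

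Both quinine arrays lay above both control arrays in 14 of the 32 genes, or 43.8%, where the share over all genes was 19.8%. They lay below in 4, or 12.5%, where the share over all genes was 29.8%. These counts describe the list and were not tested. The 95% interval of a gene's log2 fold change reached a median of 0.47 to each side, and the intervals of all but 4 genes included 0. Leaving out quinine replicate 2 raised the genes without overlap from 18 to 28, and leaving out control replicate 1 raised them to 27, where the shares over all genes were 75.2% and 78.2%, since fewer arrays by construction overlap less.

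**Figure D1:**
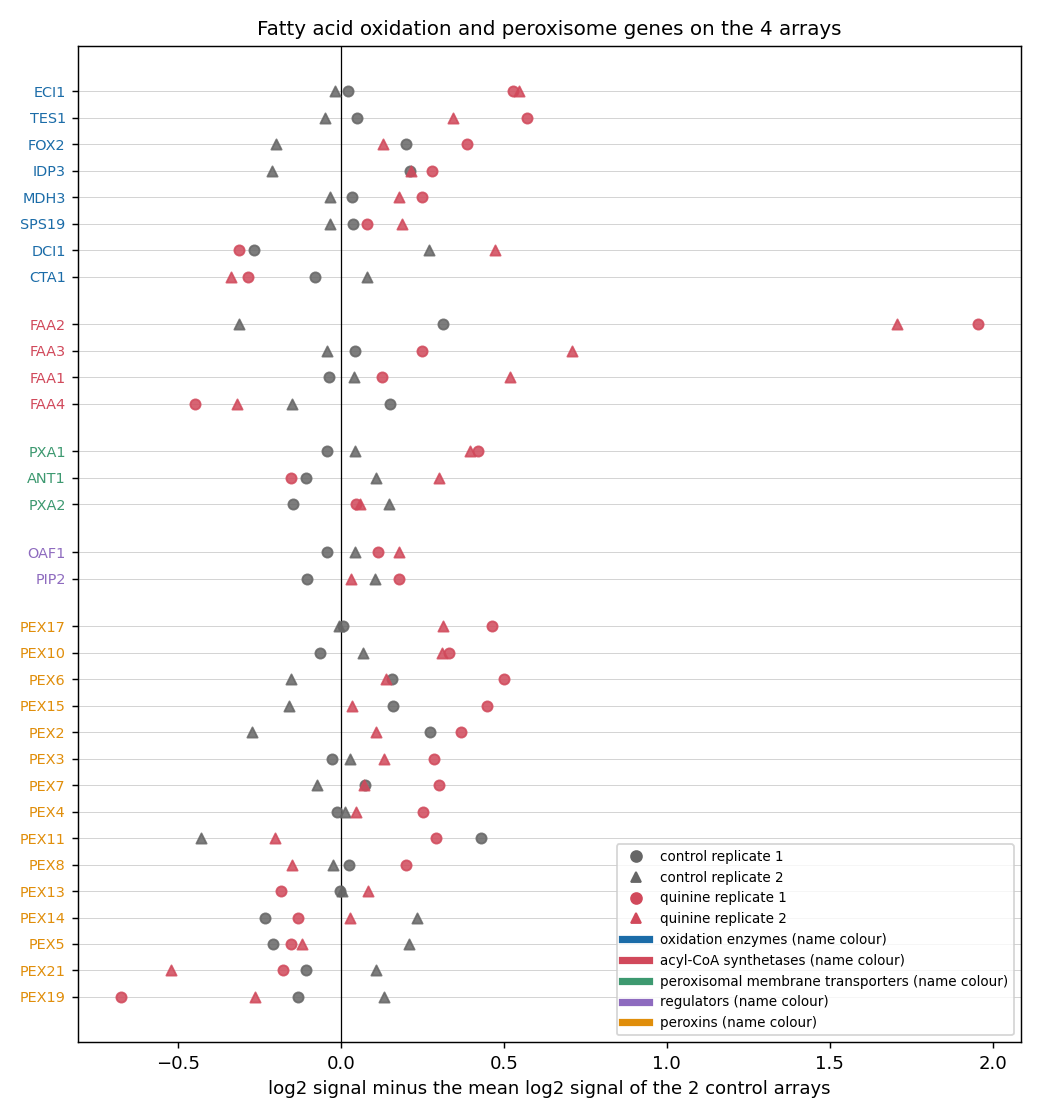
Log2 signal of the 32 tested genes on each of the 4 arrays, relative to the mean log2 signal of the 2 control arrays, with genes grouped by role (name colour). Circles are replicate 1 and triangles replicate 2, grey for control and red for quinine. FAA2 stands to the right on both quinine arrays, and PEX11 is spread by replicate in both groups.

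Acyl-CoA synthetases, which activate fatty acids before oxidation or lipid synthesis, held the largest change of the pathway. Faa2 is the peroxisomal member and prefers medium chains. FAA2 (YER015W) read 157 and 102 without drug, and 490 and 412 with quinine. The lowest quinine signal was well above the highest control signal. The fold was 3.56, as a log2 fold change of 1.83 with a standard error of 0.25, and 0.487% of all genes moved further in either direction. Its adjusted p in limma was 0.0775, and leaving out the control arrays in turn gave 0.00490 (replicate 1) and 0.0489 (replicate 2), while leaving out the quinine arrays in turn gave 0.238 and 0.378. In the authors' deposited table the fold was 3.49, with bounds of 2.48 and 5.51, and the probe set was marked.

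The other synthetase genes moved less and not all in 1 direction. FAA1 (YOR317W), for the main synthetase of imported long chains, was at 1923 and 2030 in controls, then 2155 and 2833 with quinine. FAA4 (YMR246W), whose product shares that task, was at 3372 and 2740 in controls, then 2226 and 2437 with quinine. Both quinine arrays were thus above the controls for FAA1 and below them for FAA4. The log2 fold changes were 0.32 ± 0.19 and -0.38 ± 0.17 (SE), with adjusted p values of 0.424 and 0.301 in limma. FAA1 was at 0.52 and 0.13 with quinine replicates 1 and 2 left out in turn, and FAA4 was at -0.23 with control replicate 1 left out. FAA3 (YIL009W), a synthetase active on long and very long chains, had signals of 179 and 169 without drug against 206 and 284 with it. Its log2 fold change of 0.48 ± 0.21 (SE) had an adjusted p of 0.299 in limma and was 0.25 without quinine replicate 2.

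Changes of related genes were compared within each array. The change of FAA1 exceeded that of FAA4 by 0.71 ± 0.23 (SE) on the log2 scale, and the change of FAA2 exceeded that of FAA3 by 1.35 ± 0.45 (SE). In both pairs the log2 ratio of the genes was higher on both quinine arrays than on both control arrays. By a two-sided exact permutation test over arrays each p was 0.333, the smallest that 2 arrays against 2 can give. The median log2 fold change of the 4 synthetase genes was 0.40, and it was 0.61 without quinine replicate 1 and 0.19 without quinine replicate 2.

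**Figure D2:**
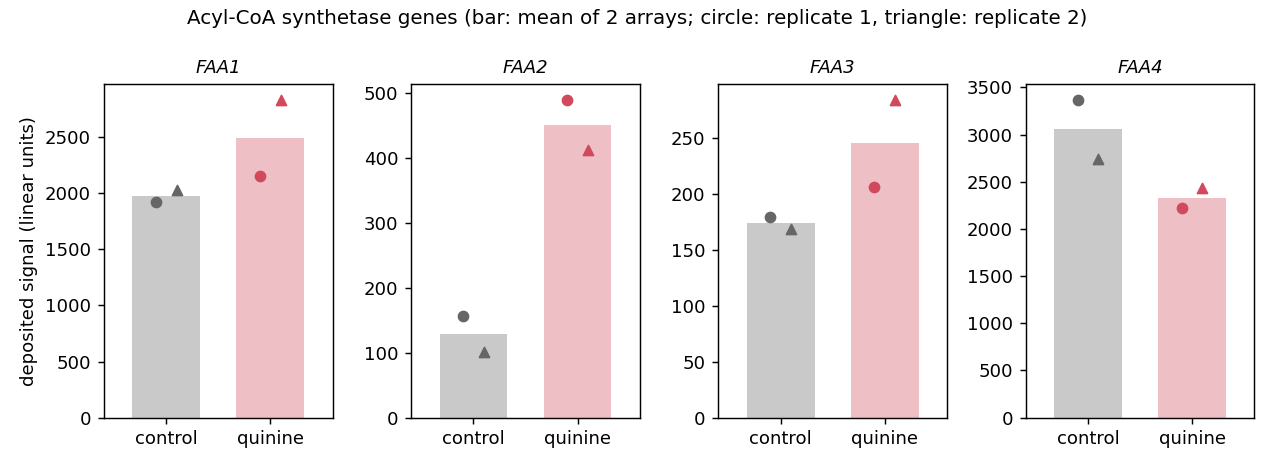
Deposited signal of the 4 acyl-CoA synthetase genes by group, in linear units with a separate scale for each gene. Bars are means of 2 arrays, circles replicate 1 and triangles replicate 2. Signals of FAA2 go from 157 and 102 to 490 and 412, and FAA4 is the gene that is lower on both quinine arrays.

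Genes of the oxidation enzymes were higher in 7 of 8 tested, by small amounts, where 46.7% of all genes were higher. Of POX1, FOX2 and POT1, the genes of the cycle itself, only FOX2 was tested. The median log2 fold change of the 8 was 0.23. Leaving out control replicate 1 gave a median of 0.35, and leaving out control replicate 2 gave 0.14. Acyl-CoA oxidase, the product of POX1, opens the cycle and makes hydrogen peroxide. The probe set named by its reading frame (YGL205W) had signals of 42.3 and 42.3 without drug against 62.9 and 82.6 with it. Present, the array software's term for a signal above background, was its call on 0 of 2 control arrays and 1 of 2 quinine arrays. With 3 of its 4 signals not above background, no fold is drawn from these signals. The 3 other POX1 probe sets, named by gene text alone, overlapped between groups, the brightest with 184 and 174 without drug against 141 and 196 with it. The probe sets of POX1 therefore differed in whether the groups overlapped.

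FOX2 (YKR009C) encodes the multifunctional enzyme of the middle steps, with hydratase and dehydrogenase activity. Its signals were 523 and 397 without drug against 595 and 499 with it. The groups overlapped, and the log2 fold change was 0.26, with a 95% interval from -0.25 to 0.77. Leaving out control replicate 1 gave 0.46, leaving out control replicate 2 gave 0.059, and leaving out quinine replicate 1 gave 0.13.

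Auxiliary enzymes handle double bonds that the core cycle cannot. ECI1 (YLR284C), for the enoyl-CoA isomerase needed for oleate, was at 234 and 228 in controls, then 333 and 338 with quinine. Replicates of ECI1 were close and the groups well apart, a fold of 1.45 with a log2 fold change of 0.54 ± 0.15 (SE) and an adjusted p of 0.165 in limma. ECI1 had 1 call that was not Present, on a control array. When each array was left out in turn its log2 fold change stayed between 0.52 and 0.56. The authors' deposited table gave ECI1 a fold of 1.45 with bounds of 1.33 and 1.58 and a mark.

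DCI1 (YOR180C), a relative of ECI1, was dim, at 13.4 and 19.4 in controls, then 13.0 and 22.4 with quinine. Its log2 fold change of 0.08 had an interval from -0.87 to 1.03, the widest of the 32, so it was not resolved. SPS19 (YNL202W), for a dienoyl-CoA reductase, was at 785 and 747 in controls, then 809 and 871 with quinine. IDP3 (YNL009W), for the peroxisomal isocitrate dehydrogenase that supplies NADPH to that reductase, was at 246 and 183 in controls, then 258 and 246 with quinine. In both genes the quinine arrays were above the controls by narrow margins, with log2 fold changes of 0.13 ± 0.16 and 0.25 ± 0.20 (SE). Leaving out quinine replicate 2 gave 0.078 for SPS19, and leaving out control replicates 1 and 2 in turn gave 0.46 and 0.035 for IDP3.

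TES1 (YJR019C) encodes the peroxisomal acyl-CoA thioesterase, which frees fatty acids from coenzyme A. Its signals were 544 and 508 without drug against 781 and 666 with it, with no overlap. The log2 fold change was 0.46 ± 0.17 (SE) and the adjusted p 0.247 in limma. MDH3 (YDL078C), for the peroxisomal malate dehydrogenase that reoxidises NADH, had a log2 fold change of 0.21 ± 0.16 (SE), from 1484 and 1417 to 1723 and 1639.

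CTA1 (YDR256C), for the peroxisomal catalase that removes hydrogen peroxide, was the enzyme gene that was lower. Its signals were 71.4 and 79.8 without drug against 61.9 and 59.8 with it. Both quinine arrays were below the controls, but the log2 fold change of -0.31 had an interval from -0.79 to 0.17 and an adjusted p of 0.455 in limma.

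**Figure D3:**
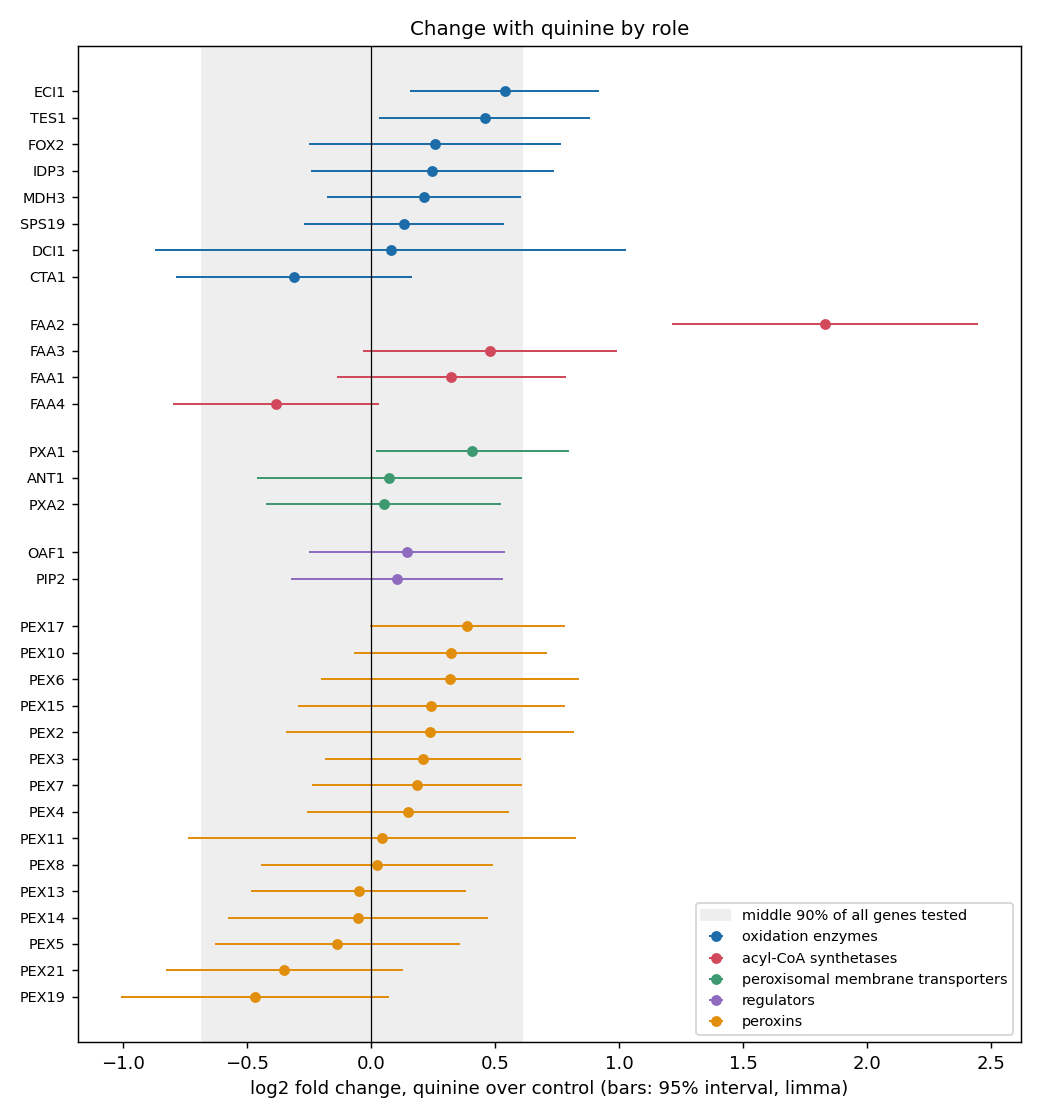
Log2 fold change, quinine over control, of the 32 tested genes with 95% intervals from limma, ordered within each role. The grey band spans the middle 90% of all genes tested, from -0.68 to 0.61. Only FAA2, at 1.83, lies outside the band among these 32 genes.

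Transport across the peroxisomal membrane is served by Pxa1 and Pxa2, which form 1 ABC transporter for long-chain acyl-CoA, and by Ant1, the carrier that brings in ATP for acyl-CoA synthesis inside. PXA1 (YPL147W) was at 192 and 203 in controls, then 264 and 260 with quinine. PXA2 (YKL188C) was at 93.3 and 114 in controls, then 106 and 107 with quinine. The 2 subunit genes differed in their values: PXA1 was separated between groups and PXA2 overlapped.

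Log2 fold changes were 0.41 ± 0.16 for PXA1 and 0.05 ± 0.19 (SE) for PXA2, with adjusted p values of 0.257 and 0.922 in limma. Within arrays the change of PXA1 exceeded that of PXA2 by 0.36 ± 0.11 (SE), with an exact permutation p of 0.333, again the smallest possible. PXA1 was marked in the authors' deposited table, with a fold of 1.34 and bounds of 1.24 and 1.45. ANT1 (YPR128C) overlapped between groups, at 1161 and 1346 in controls, then 1123 and 1540 with quinine. The median of these 3 genes was 0.07, with -0.03 when control replicate 1 was left out, 0.20 when control replicate 2 was, 0.30 when quinine replicate 1 was and 0.04 when quinine replicate 2 was.

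The regulator genes OAF1 and PIP2 encode zinc cluster proteins that pair at oleate response elements. OAF1 (YAL051W) had signals of 616 and 653 without drug against 686 and 717 with it. PIP2 (YOR363C), itself a target of the pair in oleate, was at 583 and 675 in controls, then 710 and 641 with quinine. OAF1 was higher on both quinine arrays by a narrow margin, and PIP2 overlapped.

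The log2 fold change of OAF1 was 0.14, with a 95% interval from -0.25 to 0.54, and that of PIP2 was 0.10, with an interval from -0.32 to 0.53. Adjusted p values were 0.689 and 0.794 in limma. The changes of OAF1 and PIP2 differed by 0.04 ± 0.12 (SE) on the log2 scale, with an exact permutation p of 1.

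Other regulators of oleate and carbon source genes, listed separately as 8 genes, included 3 with larger log2 fold changes than this pair, a difference that was not tested. ADR1, which encodes the zinc finger activator that acts with Oaf1 and Pip2, was at 592 and 267 in controls, then 1768 and 1732 with quinine. CAT8, for an activator of gluconeogenic genes, was at 56.7 and 37.9 without drug, below a Present call on both arrays, and at 380 and 339 with quinine. MIG1, for a glucose repressor, was at 565 and 367 in controls, then 1021 and 666 with quinine. For each of the 3 the groups did not overlap.

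The log2 fold change of ADR1 was 2.14 ± 0.37 (SE), and it was 2.71 with control replicate 1 left out and 1.56 with control replicate 2 left out. With its control signal as an upper limit, CAT8 was at least 7.74-fold higher as a ratio of geometric means. MIG1 was at 0.86 ± 0.30 (SE), and leaving out 1 array at a time gave from 0.55 to 1.17. Adjusted p values of ADR1 and MIG1 were 0.0822 and 0.225 in limma. That of ADR1 was 0.00198 and 0.0565 with control replicates 1 and 2 left out in turn, and 0.252 and 0.378 with quinine replicates 1 and 2 left out in turn. CAT8 entered the test only through the quinine arrays, where it was high, so no p is given for it. Of all 8, 7 were higher, CAT8 among them, where 46.7% of all genes were, with a median of 0.12. With CAT8 left aside, ADR1 and MIG1, both higher, had an unadjusted p under 0.05 in limma. Over all genes the share with such a p was 18.3% in either direction and 6.32% on the higher side. OAF3, a zinc cluster regulator of oleate genes, was at 0.06, and the genes SNF1 and SNF4 of the kinase that relieves glucose repression were at -0.03 and 0.11.

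**Figure D4:**
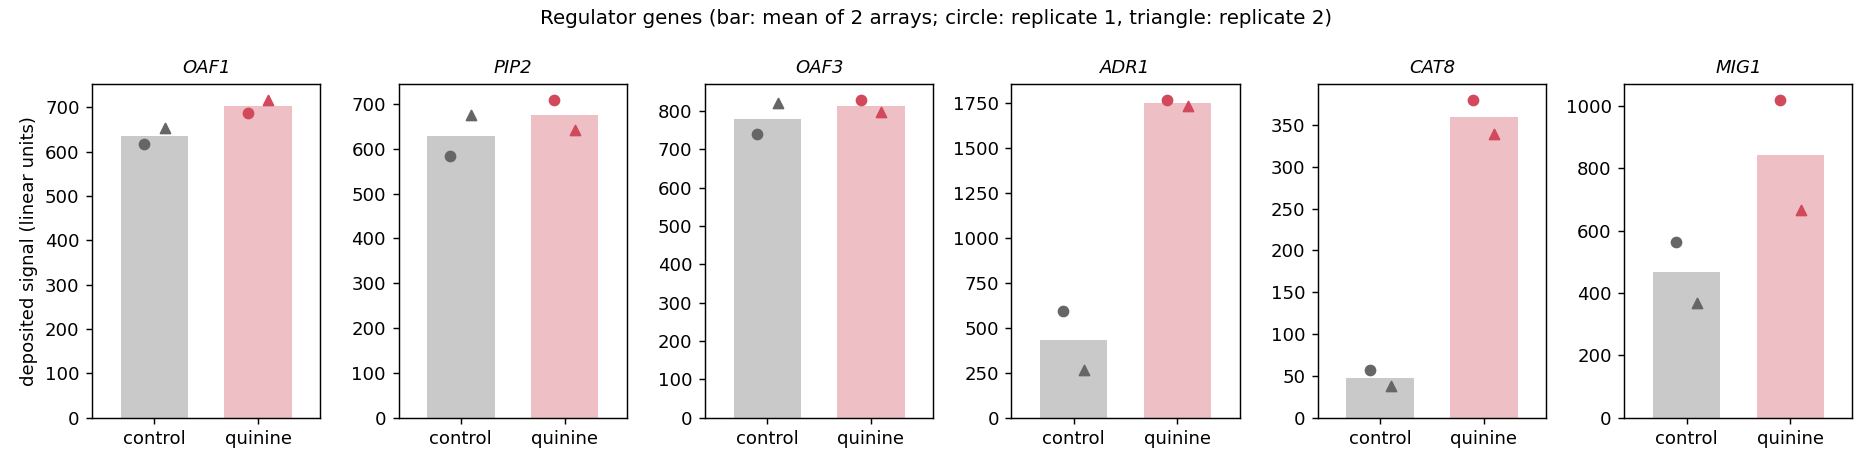
Deposited signal of OAF1, PIP2 and OAF3 beside ADR1, CAT8 and MIG1, in linear units with a separate scale for each gene. Bars are means of 2 arrays, circles replicate 1 and triangles replicate 2. Signals of ADR1 on the quinine arrays are 1768 and 1732 against 592 and 267 in controls, while those of PIP2 overlap.

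Peroxins as a group moved little. Of 15 tested genes 10 were higher and 5 lower, around a median of 0.15 on the log2 scale and over a range from -0.47 to 0.39, and 0 had an unadjusted p under 0.05 in either direction, beside 6.32% of all genes higher and 12.0% lower. Quinine arrays were above both controls in 4 of the 15, or 26.7%, and below in 2, or 13.3%, where the shares over all genes were 19.8% and 29.8%. The median was 0.05 without quinine replicate 1 and 0.28 without quinine replicate 2, and 0.08 without control replicate 2.

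Import receptors and co-receptors were not higher as a set. PEX5 (YDR244W), for the receptor of the common carboxy-terminal signal, was at 166 and 222 in controls, then 173 and 177 with quinine. PEX7 (YDR142C), for the receptor of the amino-terminal signal that thiolase carries, was at 384 and 347 in controls, then 450 and 384 with quinine. Both overlapped between groups, with log2 fold changes of -0.14 and 0.19, which on leaving out 1 array at a time ranged from -0.35 to 0.072 and from 0.071 to 0.30.

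PEX21 (YGR239C), whose product is a co-receptor of Pex7 beside its paralog Pex18, was at 464 and 539 in controls, then 442 and 348 with quinine. Its quinine arrays were below both controls, with a log2 fold change of -0.35 ± 0.19 (SE) and an adjusted p of 0.400 in limma, and it was -0.18 without quinine replicate 2. No value of PEX18 stands beside it.

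At the docking site of the membrane, where loaded receptors bind, PEX17 (YNL214W) was the member that stood apart between groups. Its signals were 361 and 357 without drug against 495 and 446 with it, a log2 fold change of 0.39 ± 0.16 (SE) with an adjusted p of 0.275 in limma. PEX13 and PEX14, for the other docking proteins, were at -0.05 each, and PEX8, for the protein that joins docking and ubiquitin ligase complexes from inside, was at 0.02.

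Pex2 and Pex10 are RING ligases that ubiquitinate receptors. PEX10 (YDR265W) was at 393 and 430 in controls, then 517 and 510 with quinine, with a log2 fold change of 0.32 ± 0.16 (SE). PEX2 overlapped, at 0.24. Receptors are recycled by the ubiquitin-conjugating enzyme Pex4 and by the ATPase Pex6, which is anchored by Pex15. The log2 fold changes of PEX4, PEX6 and PEX15 were 0.15, 0.32 and 0.24, and on leaving out 1 array at a time they ranged from 0.047 to 0.25, 0.14 to 0.50 and 0.034 to 0.45. PEX4 (YGR133W) was separated by a narrow margin, from 256 and 261 to 308 and 267, and the other pair overlapped.

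Membrane proteins are inserted by Pex3 and Pex19, and the 2 genes lay on opposite sides. PEX3 (YDR329C) was at 352 and 366 in controls, then 437 and 393 with quinine. PEX19 (YDL065C) was at 140 and 169 in controls, then 96.3 and 128 with quinine. Neither overlapped between groups, with log2 fold changes of 0.21 ± 0.16 and -0.47 ± 0.22 (SE), the latter the lowest of the 32, and adjusted p values of 0.550 and 0.324 in limma. PEX3 was at 0.13 and PEX19 at -0.26 without quinine replicate 1 and PEX19 was at -0.67 without quinine replicate 2.

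Division and growth of peroxisomes depend on Pex11, a peroxin induced by oleate in this yeast. PEX11 (YOL147C) was at 4313 and 2380 in controls, then 3920 and 2781 with quinine. The spread within each group was larger than the distance between groups, with means of 3347 ± 1367 and 3350 ± 806 (SD, n = 2 each). Its log2 fold change of 0.04 had an interval from -0.74 to 0.83. Leaving out the control arrays in turn gave 0.47 and -0.39, and leaving out the quinine arrays in turn gave -0.20 and 0.29, so no direction can be given.

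Other peroxins and inheritance factors, 18 genes listed beside these, had 11 higher, 7 lower and a median of 0.04. PEX32, counted among the higher genes, entered the test only through the quinine arrays. It was called Present on 0% of control arrays and 100% of quinine arrays. Its signals were dim and overlapped, at 21.5 and 25.6 in controls, then 23.7 and 39.9 with quinine. With its control signal as an upper limit, PEX32 was at least 1.31-fold higher as a ratio of geometric means. An unadjusted p under 0.05 was found for 2 higher, or 11.1%, and 1 lower, or 5.56%, where the shares over all genes were 6.32% and 12.0%. PEX29, for a peroxin that limits peroxisome size and number, was at 231 and 227 in controls, then 440 and 397 with quinine, a log2 fold change of 0.87 ± 0.16 (SE) with an adjusted p of 0.0855 in limma. DNM1, for a dynamin-related protein of mitochondrial and peroxisomal fission, was at 445 and 453 in controls, then 649 and 642 with quinine. PEX25, for a protein of peroxisome proliferation related to Pex11, was at 1213 and 1282 in controls, then 866 and 937 with quinine. Replicates of these 3 genes were close, and the log2 fold changes of DNM1 and PEX25 were 0.52 and -0.47, with adjusted p values of 0.173 and 0.228 in limma.

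Among 14 tested genes for other peroxisomal enzymes and fatty acid uptake, 8 were higher and 6 lower, with a median of 0.06 and 1 gene, or 7.14%, with an unadjusted p under 0.05, where 18.3% of all genes had one. This was CAT2, for the carnitine acetyltransferase that passes acetyl units out of the peroxisome and into mitochondria. CAT2 was at 389 and 270 in controls, then 697 and 500 with quinine, with a log2 fold change of 0.86 ± 0.26 (SE) and an adjusted p of 0.179 in limma. Leaving out 1 array at a time gave from 0.60 to 1.13.

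Lipid mobilisation and storage genes were higher in 5 of 8, with a median of 0.05. TGL4, for a triacylglycerol lipase that frees fatty acids from lipid droplets, was the 1 of 8, or 12.5%, with an unadjusted p under 0.05, where 18.3% of all genes had one. It was at 583 and 488 in controls, then 1018 and 854 with quinine, a log2 fold change of 0.81 ± 0.19 (SE) with an adjusted p of 0.128 in limma. In the opposite pathway, fatty acid synthesis and desaturation, 5 of 12 genes were higher and 7 lower, with a median of -0.05 and 0 with an unadjusted p under 0.05 in limma, where 18.3% of all genes had one. The largest value there was that of MGA2, for an activator of the desaturase gene OLE1, at -0.25 ± 0.19 (SE).

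The authors' deposited table marked 4 of the 36 probe sets of the pathway, all higher, where 10.3% of all probe sets were marked in either direction and 4.07% higher. These were the probe sets of FAA2, ECI1 and PXA1 and the reading frame probe set of POX1, and they made up 11.1% of the 36. The last had a deposited fold of 1.73 with bounds of 1.27 and 2.29. It was called Present on 0% of control arrays and 50% of quinine arrays, so its fold and mark rest on signals mostly not above background. The other POX1 probe sets were not marked, at deposited folds of -1.06, -1.02 and 1.31. Among the 32 tested genes, which leave POX1 out, 3 were marked, or 9.38%, beside 12.7% of all genes tested.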

How the data were processed

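The deposited values are linear signal intensities, 1 per probe set and array, and MAS5 is named in the submitters' processing notes, its role and version unstated. The authors' deposited table adds group mean intensities, standard errors, folds and bounds, which are scores of the authors' own, marks, and, as a percent, how many arrays of a group were called Present. The sources used here do not give the scaling between arrays. Every probe set in the table was Present on at least 1 array.

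Of 7519 probe sets, 5291 named 1 gene through a reading frame in the RefSeq gene table of assembly R64. Those Present on at least 2 of 4 arrays were kept, with the brightest per gene, which gave 5130 genes. Log2 signals without pseudocount were compared in limma 3.58.1 (R 4.3.3; lmFit, eBayes with variance trend, 2 residual degrees of freedom, Benjamini-Hochberg over all genes), and the code was tested on simulated data. A fold compares geometric means. Precision is limited by the number of arrays. A gene Present on no array of a group is given as a bound.

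Members and lists were chosen with earlier results of these data known. Named were members with an unadjusted p under 0.05, a log2 fold change of at least 0.5 in size or no overlap, some fixed members and paralog pairs, and up to 4 genes of each other list.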

Additional observations from a re-analysis of the deposited data

How the results depend on the processing

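Scaling, floors and filters left no pathway gene past the adjusted threshold, and none changed sign under them. The genes called over all genes were 1 as reported, 0 after quantile normalization, median centring, a floor of 50 or no variance trend, 2 with a pseudocount of 50, and 0 to 105 on leaving out 1 array. When 1 array was left out, the pathway genes with an unadjusted p under 0.05 ranged from 1 to 3, or 3.12% to 9.38%, beside 9.96% to 18.8% of all genes, those without overlap from 22 to 28, beside 72.6% to 78.2% of all genes, and the median log2 fold change from 0.13 to 0.25. By role the medians ranged from 0.14 to 0.35 for oxidation enzymes, 0.19 to 0.61 for synthetases, -0.034 to 0.30 for transporters, 0.05 to 0.20 for regulators and 0.047 to 0.28 for peroxins. Differences between paralogs, with alternatives added after the data were seen, ranged from 0.52 to 0.90, 1.00 to 1.71, -0.07 to 0.15 and 0.25 to 0.46, in the order FAA1 minus FAA4, FAA2 minus FAA3, OAF1 minus PIP2 and PXA1 minus PXA2.

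Sign changed in 10 of 32 genes when 1 array was left out, with ranges of -0.31 to 0.47 for DCI1, -0.10 to 0.20 for PXA2, -0.15 to 0.30 for ANT1, -0.00021 to 0.21 for PIP2, -0.037 to 0.51 for PEX2, -0.35 to 0.072 for PEX5, -0.15 to 0.20 for PEX8, -0.39 to 0.47 for PEX11, -0.19 to 0.083 for PEX13 and -0.29 to 0.18 for PEX14. With 1 array in a group, that array is assumed to vary like the others. At a floor of 50 DCI1 had no value, since all of its arrays lay under it. The cause of these shifts was not tested.

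Groups share replicate numbers, but the labels do not say that a number marks a shared culture or day. With the replicate number as a block, 1458 genes were called, or 28.4%, and 10 pathway genes had an unadjusted p under 0.05, or 31.2% beside 37.7% of all genes. In that fit 7 pathway genes, or 21.9%, passed over all genes: FAA2, ECI1, TES1, FAA3, PXA1, FAA4 and PEX19, the last 2 lower. Their adjusted p values in limma were at most 0.0489, and that of FAA2 was 7.8e-26. The block leaves fewer residual degrees of freedom than the 2 of the main fit, so these p values lean on variance pooled over genes. The differences between replicates 1 and 2 in controls and in quinine arrays correlated at r = 0.62 across 5130 genes, which are not independent replicates. In 21 of the 32 pathway genes replicate 1 lay on the same side of replicate 2 in both groups, beside 69.3% of all genes.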

Other observations

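Probe sets for segments of the long fatty acid synthase gene FAS1, outside the test, differed by replicate number in both groups. The segment probe set numbered lowest by the array design had signals of 607 and 628 on the replicate 1 arrays of control and quinine and of 2717 and 2890 on the replicate 2 arrays. The segment numbered highest had 4747 and 3801 against 4939 and 4736. The reading frame probe set of FAS1, which was in the test, was instead higher in replicate 1, at 5607 and 5183 against 3906 and 5066. Segments of FAS2 were also lower in replicate 1 in both groups, such as 225 and 275 against 573 and 732. The sources used here do not say which part of a gene each segment covers. The bearing of these differences on the genes of the pathway was not tested.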
